A study of Paeonia lactiflora with 9 samples.

Results

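In developing seeds of the herbaceous peony Paeonia lactiflora 'Hangshao', 75 of the 125685 unigenes with deposited values peaked at the middle of the 3 sampled stages. Their values were lower, though not always low, on both sides of it. A unigene is a transcript sequence put together from the reads themselves, and its level is given as FPKM, the number of fragments scaled to the length of the unigene and to all mapped fragments of the library. The 75 unigenes had at least 10 FPKM in each of the 3 libraries at 60 days after flowering (DAF), and their lowest value there was at least 2 times the highest of the 6 values at 30 and 90 DAF. Their mean over the 9 libraries was under 700 FPKM, a cap that left out 3 further unigenes, and the study's list of unigenes for fatty acid synthesis, oil assembly and oil storage held none of the 75. The unigenes were thus chosen by their measured FPKM in all 9 libraries, so the difference from 30 to 60 DAF (Group I) and from 60 to 90 DAF (Group II) is described below without a test. The rule capped the values at 30 and 90 DAF alike and did not set which of them was higher. The difference between 90 and 30 DAF (Group III) was therefore fitted, but on values that also entered the choice, so its calls are not independent of the rule and their shares are a description.

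The 9 libraries were 3 each of seeds with no treatment named at 30, 60 and 90 DAF, which the study called the early, middle and late stages. All seeds were of 1 strain, from the same plant by the study's methods, grown in 1 garden, so that p-values cover only the spread between these seed samples. No dissection of the seeds into embryo, endosperm and coat is described, and a lower value from fewer cells of a type cannot be told apart from less RNA per cell. The seed label was checked with oil body proteins. The summed FPKM of 6 oleosin unigenes ranged from 758 to 914 at 30 DAF, from 4811 to 8724 at 60 DAF and from 8056 to 12840 at 90 DAF.

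An oilseed first forms its coat and endosperm, then fills with oil and protein, and last matures and dries. Many transcripts of the filling phase are made for a limited time, because a seed builds up its stores and the compounds of its coat in turn. Enzymes of the phenylpropanoid pathway, which turns phenylalanine into lignin, flavonoids and related phenolics, act in seed coats. Other pathways that pass through an active phase in seeds make sterols and terpenoids from isoprenoid units, move sugars into oil, and make jasmonate from fatty acids.

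By the same rule on the deposited FPKM, a peak in the middle stage was less common than one at either end. Of 5660 unigenes with at least 10 FPKM in all libraries at 60 DAF, the 75 were 1.33%. Turned to 30 DAF, the rule took 633 unigenes, 8.62% of the 7341 with at least 10 FPKM there. Turned to 90 DAF, it took 1094, or 17.0% of 6451. Unigenes on the study's list for fatty acids and oil were not dropped from these counts. The counts at 30 and 90 DAF were not repeated after scaling the libraries to each other. Median-of-ratios scaling raised the count at 60 DAF to 129. The study lists nearly equal numbers of clean reads for the libraries, but mapped depth could not be read from FPKM directly. The commonest ratio of low FPKM values (0.1 to 0.6) of replicate 1 at 30 DAF to those of a library put its relative depth between 0.871 and 1.07.

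At 60 DAF the 75 unigenes together made up 2.31% ± 0.455 of the summed FPKM of a library (SD, n = 3), whereas their share was 0.275% ± 0.005 in the early stage and 0.102% ± 0.023 in the late one. By library the share at 60 DAF was 2.52%, 2.63% and 1.79%. The median of the stage means was 9.22 FPKM at 30 DAF, 58.6 FPKM at 60 DAF and 0.663 FPKM at 90 DAF. At 60 DAF, 27 unigenes had a mean of at least 100 FPKM, 14 lay between 50 and 100, and 34 were under 50. By this median the level after the peak was lower than before it, and all 75 were above 0 in every library at 30 DAF.

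**Figure D1:**
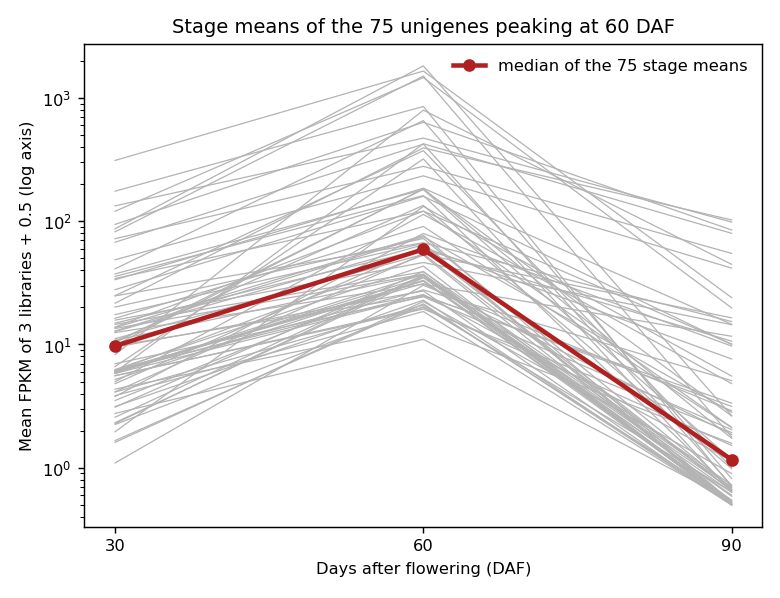
Mean FPKM of 3 libraries for each of the 75 unigenes (grey lines, 0.5 added, log axis) against days after flowering, with the median of the stage means in red. The median lies at 9.22 FPKM at 30 DAF, 58.6 at 60 DAF and, before 0.5 is added, 0.663 at 90 DAF, and the grey lines spread most at 90 DAF.

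The 10 unigenes with the highest mean at 60 DAF carried 60.3% to 67.6% of the summed FPKM of the 75 in the 3 libraries at 60 DAF. None of these 10 had an enzyme name in the study's tables. CL1162.Contig5_All was the highest, with 44.7, 176 and 38.0 FPKM at 30 DAF, 1331, 2716 and 1409 at 60 DAF, then 3.04, 1.97 and 1.43 at 90 DAF. Unigene19586_All had 312, 293 and 328 FPKM at 30 DAF, 2165, 1875 and 916 at 60 DAF, then 34.9, 14.1 and 21.6 at 90 DAF. Its 30 DAF level was the highest of the 75, and the 3 stages did not overlap in either unigene.

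CL11991.Contig1_All had 63.7, 70.4 and 110 FPKM at 30 DAF, 2210, 1616 and 684 at 60 DAF, then 3.32, 0 and 0.52 at 90 DAF. Unigene43270_All had 112, 195 and 53.8 FPKM at 30 DAF, 1185, 2109 and 1095 at 60 DAF, then 8.43, 36.0 and 13.5 at 90 DAF. CL11879.Contig1_All had 212, 107 and 206 FPKM at 30 DAF, 987, 963 and 609 at 60 DAF, then 0.60, 0 and 0 at 90 DAF. These 3 unigenes kept their stages apart, and in CL11991.Contig1_All the highest library at 60 DAF was more than 3 times the lowest.

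CL4505.Contig5_All had 46.6, 26.6 and 48.7 FPKM at 30 DAF, 897, 706 and 361 at 60 DAF, then 0.37, 0 and 0.58 at 90 DAF. CL1224.Contig3_All had 78.9, 102 and 100.02 FPKM at 30 DAF, 637, 541 and 721 at 60 DAF, then 85.0, 64.8 and 103.5 at 90 DAF. CL2894.Contig2_All had 140.5, 115 and 142 FPKM at 30 DAF, 543, 370 and 502 at 60 DAF, then 104, 75.6 and 115 at 90 DAF. The first was nearly gone at 90 DAF, while the other two were back near their 30 DAF levels, with overlapping libraries in CL1224.Contig3_All.

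**Figure D2:**
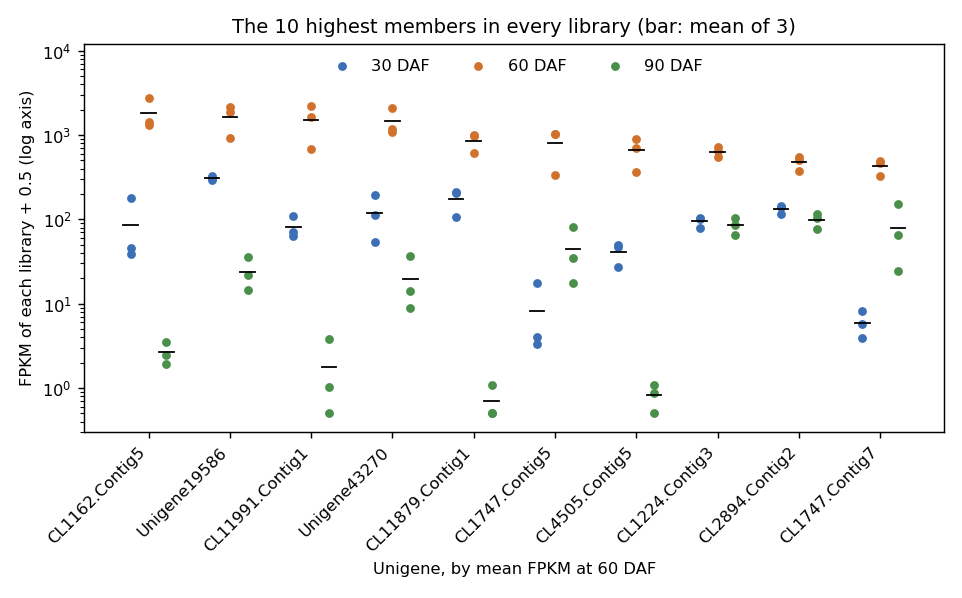
FPKM of each library (points, 0.5 added, log axis) for the 10 unigenes with the highest mean at 60 DAF, with the mean of 3 libraries as a bar and the stages in colour. Both contigs of CL1747 sit higher at 90 than at 30 DAF, whereas CL11879.Contig1_All reaches 0.60 FPKM at most at 90 DAF.

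From 30 to 60 DAF the mean was between 2.53 and 102 times as high, with a median of 5.86 times. The level was at least 10 times as high in 26 unigenes, under 5 times in 26, and under 3 times in 7. On the scale log2(FPKM + 0.5) the median difference of the 75 was 2.59, beside -0.31 over all 55192 unigenes tested. The smallest fold was that of CL4480.Contig7_All, with 10.96, 12.4 and 12.7 FPKM at 30 DAF and 28.8, 29.1 and 33.2 at 60 DAF. Folds of 50 or more were found in 5 unigenes: CL1747.Contig5_All, CL1747.Contig2_All, CL1747.Contig7_All, Unigene43269_All and Unigene43510_All.

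The highest ratios of the lowest 60 DAF value to the highest of the other 6 values belonged to Unigene43269_All, the 3 contigs of CL2711 and Unigene17165_All. Unigene43269_All had 2.29, 12.7 and 3.41 FPKM at 30 DAF, 268, 452 and 239 at 60 DAF, then 0.06, 0.12 and 0.22 at 90 DAF. Its lowest value in the middle stage was 18.9 times its highest value elsewhere. Unigene17165_All had 1.49, 0.68 and 1.31 FPKM at 30 DAF, 15.7, 27.4 and 19.5 at 60 DAF, and was listed at 0 in all 3 libraries at 90 DAF.

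From 60 to 90 DAF the median unigene kept 0.676% of its 60 DAF mean. The share left was under 1% in 39 unigenes, under 5% in 50, and above 10% in 16, with 36.8% as the largest value. The median difference was -5.52 on the log2(FPKM + 0.5) scale, beside 0.36 over all unigenes tested. Mean levels at 90 DAF were under 1 FPKM in 38 unigenes, from 1 to 10 FPKM in 22, and at least 10 FPKM in 15. Of the 75, 29 were listed at 0 in at least 1 library at 90 DAF, and 9 in all 3. These 9 were CL3679.Contig4_All, CL11879.Contig2_All, CL9737.Contig1_All, CL9737.Contig2_All, Unigene17056_All, CL68.Contig5_All, CL6410.Contig1_All, Unigene17165_All and CL5365.Contig2_All. Their means at 60 DAF were from 2.96 to 20.2 times those at 30 DAF, so that unigenes of small and of large fold were among them.

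**Figure D3:**
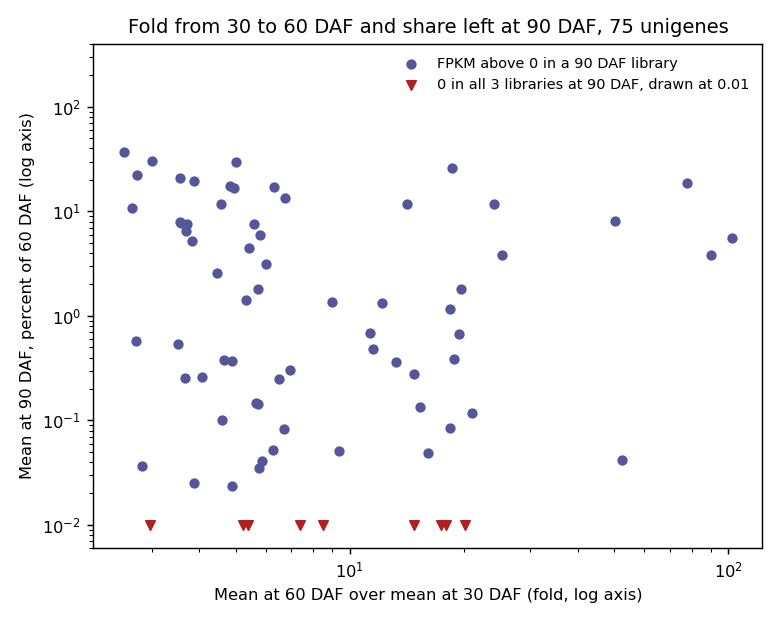
Mean at 60 DAF over mean at 30 DAF (horizontal, fold, log axis) against the mean at 90 DAF as a percentage of that at 60 DAF (vertical, log axis), 1 point per unigene. Triangles drawn at 0.01 are the 9 unigenes listed at 0 in all 3 libraries at 90 DAF, and both small and large folds occur among the unigenes with under 1% left.

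In Group III, 50 of the 75 unigenes were lower at 90 than at 30 DAF by limma (fold of at least 2 on the log2 scale, Benjamini-Hochberg adjusted p of at most 0.05 over all unigenes tested), 5 were higher, and 20 did not pass. The 50 were 66.7% of the 75, where 15.7% of all unigenes tested were called lower, and the 5 were 6.67%, where 12.8% of all were called higher. Among the 5660 unigenes with at least 10 FPKM at 60 DAF, 28.5% were called lower and 16.0% higher. All libraries at 90 DAF lay below all at 30 DAF in 59 of the 75, against 23.5% of all unigenes tested and 42.6% of those with at least 10 FPKM at 60 DAF, and above them in 7, against 24.6% and 32.3%. The median difference was -2.21, with 0.06 over all unigenes tested. The rule capped both outer stages, and all 75 passed the filter of the fit through their 60 DAF libraries. These shares and medians are therefore set side by side without a test. The lower calls were kept in each of 18 other settings for 44 of the 50. Of the 20 unigenes that did not pass, 9 had an unadjusted p under 0.05.

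**Figure D4:**
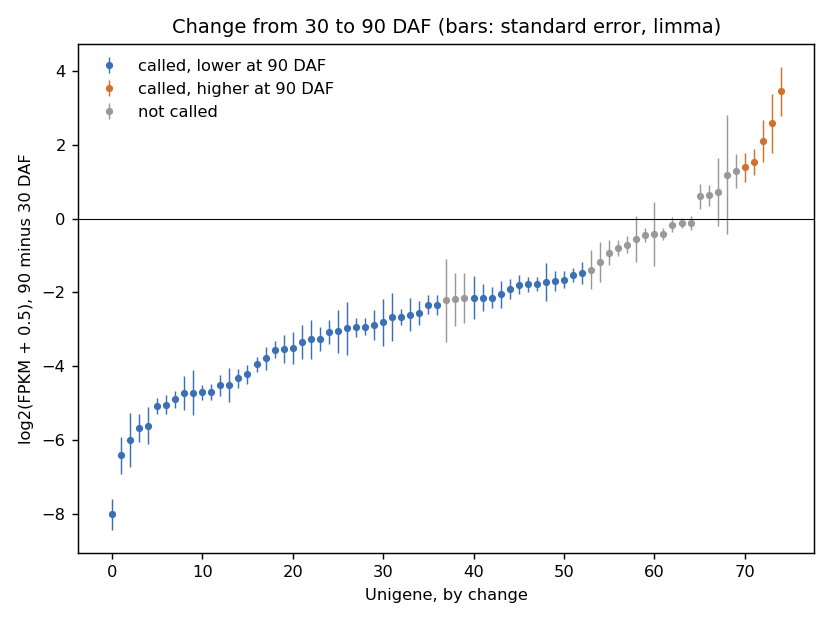
Difference between 90 and 30 DAF in log2(FPKM + 0.5) for each of the 75 unigenes, ordered by size, with its standard error from limma (n = 3 a stage). The 50 unigenes called lower (blue) reach -8.01, the 5 called higher (orange) reach 3.44, and 20 (grey) did not pass the test.

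On the log2(FPKM + 0.5) scale, the 5 largest falls between the outer stages were in unigenes without an enzyme name. On this scale a unigene near 0 at 90 DAF can fall only as far as its 30 DAF level allows. In percent of the 30 DAF mean, the 9 unigenes listed at 0 in all 90 DAF libraries lost more. CL11879.Contig1_All fell by 8.01 ± 0.42 (SE, adjusted p = 5.5e-05 by limma) and CL11991.Contig1_All fell by 5.99 ± 0.72 (adjusted p = 0.00145). With 0.1 or 1 added instead, the difference of CL11879.Contig1_All was -9.77 or -7.17. CL1587.Contig1_All, with 71.6, 28.9 and 101 FPKM at 30 DAF, 644, 399 and 220.5 at 60 DAF, then 0.37, 0 and 0.29 at 90 DAF, fell by 6.42 ± 0.49 (adjusted p = 0.000241). CL4505.Contig5_All fell by 5.68 ± 0.38 (adjusted p = 0.000138). The study's tables place Unigene33105_All in endocytosis, in which a cell takes up material in vesicles formed from its membrane. This unigene had 40.6, 50.3 and 14.6 FPKM at 30 DAF, 179, 186 and 118 at 60 DAF, then 0.37, 0.12 and 0 at 90 DAF. It fell by 5.61 ± 0.50 (adjusted p = 0.000429), and all 5 calls were kept in every other setting. Unigene43270_All fell by 2.68 ± 0.65 (adjusted p = 0.0205), a call kept in 13 of 18 other settings and lost without replicate 1 or 2 at 30 DAF (-2.63 and -2.23), without replicate 3 at 90 DAF (-2.55), without a filter and at an adjusted p of at most 0.01.

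The 5 unigenes called higher at 90 than at 30 DAF were 3 contigs of CL1747, CL5085.Contig1_All and CL979.Contig6_All. The tables give none of them a name. The mean was higher at 90 than at 30 DAF in 9 of the chosen unigenes, these 5 included, and the others did not pass the test. CL1747.Contig7_All had 7.65, 3.46 and 5.25 FPKM at 30 DAF, 324, 462 and 489 at 60 DAF, then 64.6, 23.9 and 149 at 90 DAF, and rose by 3.44 ± 0.66 from 30 to 90 DAF (adjusted p = 0.00863 by limma). It was the one higher call kept in all 18 other settings. CL1747.Contig5_All had 17.0, 2.86 and 3.51 FPKM at 30 DAF, 337, 1021 and 1028 at 60 DAF, then 34.2, 17.1 and 81.2 at 90 DAF, so that its 90 DAF libraries only just cleared its first 30 DAF library. Its difference of 2.58 ± 0.80 (adjusted p = 0.0475) was kept in 7 of 18 settings. CL1747.Contig2_All had 2.22, 0.82 and 1.33 FPKM at 30 DAF, 168, 184 and 43.2 at 60 DAF, then 4.87, 3.54 and 6.71 at 90 DAF, with a difference of 1.52 ± 0.36 (adjusted p = 0.0183) that was kept in 13 of 18.

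CL5085.Contig1_All had 12.4, 23.0 and 28.0 FPKM at 30 DAF, 483, 398 and 298 at 60 DAF, then 148, 38.1 and 119 at 90 DAF. Its mean of 102 FPKM was the highest of the 75 at 90 DAF, and its difference of 2.11 ± 0.56 (adjusted p = 0.0291 by limma) was kept in 10 of 18 settings. CL979.Contig6_All had 5.28, 2.31 and 2.25 FPKM at 30 DAF, 106, 79.6 and 51.2 at 60 DAF, then 13.4, 7.49 and 6.73 at 90 DAF, with a difference of 1.39 ± 0.40 (adjusted p = 0.0362) that was kept in 11 of 18. All 4 calls other than that of CL1747.Contig7_All were lost without replicate 2 or without replicate 3 at 30 DAF, which left 1 unigene called higher in either case. Of the 5 calls, 2 were kept without replicate 1 at 90 DAF, 3 without replicate 3 at 90 DAF, and 4 without replicate 1 at 30 DAF or replicate 2 at 90 DAF.

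Among the unigenes that did not pass, CL4480.Contig1_All came back near its 30 DAF level, though all its 90 DAF libraries lay below those at 30 DAF. It had 16.3, 14.6 and 14.9 FPKM at 30 DAF, 44.3, 45.8 and 47.2 at 60 DAF, then 14.3, 14.4 and 13.2 at 90 DAF. Its difference between the outer stages was -0.12 ± 0.13 (adjusted p = 0.518 by limma). The tables place this contig and CL4480.Contig7_All in the metabolism of alanine, aspartate and glutamate and in nitrogen metabolism, through which a filling seed handles amino nitrogen. CL1224.Contig3_All differed by -0.17 ± 0.20 (adjusted p = 0.575) and CL2894.Contig2_All by -0.45 ± 0.19 (adjusted p = 0.111).

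Of the 75 unigenes, 26 stood in the study's KEGG table for Group I, which pairs 1698 unigenes with pathways, and 5 had an enzyme name. That table was drawn up from unigenes that differed in these same libraries, so its counts are no independent evidence of a direction. For the other unigenes no gene name or role is given, and their levels are reported by identifier.

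Lipid metabolism held 6 of the 75, of 191 unigenes listed for its 14 pathways. In Group III, 5 of the 6 were called lower and none higher by limma. Over the 186 tested unigenes of the list, 96 were called lower and 47 higher, with a median difference of -1.40. CL8793.Contig3_All, an alpha-galactosidase, which cuts galactose from raffinose-type sugars and galactolipids, had 31.4, 37.8 and 32.1 FPKM at 30 DAF, 151, 131 and 78.4 at 60 DAF, then 7.48, 11.5 and 9.78 at 90 DAF. The 3 stages did not overlap, and it fell by 1.78 ± 0.19 from 30 to 90 DAF (adjusted p = 0.000916).

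CL5476.Contig1_All, an acylglycerol lipase, which frees fatty acids from monoacylglycerol, had 7.57, 3.67 and 4.76 FPKM at 30 DAF, 45.8, 36.4 and 21.9 at 60 DAF, then 0.15, 0.11 and 0 at 90 DAF. It fell by 3.27 ± 0.32 (adjusted p = 0.000652 by limma). CL11819.Contig1_All, an alcohol-forming fatty acyl-CoA reductase, the kind of enzyme that makes fatty alcohols for waxes and for suberin, had 3.02, 1.98 and 1.77 FPKM at 30 DAF, 11.03, 10.4 and 10.2 at 60 DAF, then 0.12, 0 and 0 at 90 DAF. Its mean at 60 DAF was the lowest of the 75, and from 30 to 90 DAF it fell by 2.33 ± 0.27 (adjusted p = 0.0013).

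Unigene30026_All, an allene oxide cyclase, which closes the ring of the jasmonate precursor, had 4.47, 2.81 and 4.26 FPKM at 30 DAF, 13.5, 13.7 and 14.1 at 60 DAF, then 0.73, 1.49 and 1.01 at 90 DAF. It fell by 1.47 ± 0.29 (adjusted p = 0.00996 by limma). CL2944.Contig3_All, a farnesyl-diphosphate farnesyltransferase or squalene synthase, the first enzyme committed to sterols and triterpenes, had 7.05, 3.92 and 6.04 FPKM at 30 DAF, 41.8, 34.3 and 16.0 at 60 DAF, then 0.35, 0.16 and 3.58 at 90 DAF. All its 90 DAF libraries lay below those at 30 DAF, but the difference of -2.19 ± 0.71 missed the threshold (adjusted p = 0.0542), and it passed in 4 of 18 other settings: with 1 added, after median-of-ratios scaling, with all 9 libraries in the fit and without replicate 3 at 90 DAF (-3.01).

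The other contig of the lipid list, CL6514.Contig2_All, is placed in pathways as unlike as glycerolipid, phenylpropanoid, sugar and cyanoamino acid metabolism, so that 1 unigene counts in several lists. It had 13.2, 14.02 and 12.3 FPKM at 30 DAF, 103, 61.1 and 63.7 at 60 DAF, then 0.08, 0 and 0 at 90 DAF. It fell by 4.70 ± 0.21 (adjusted p = 2.88e-05 by limma).

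Phenylpropanoid and flavonoid synthesis held 5 of the 75, of 127 listed, and 4 of the 5 were called lower in Group III. Over the 120 tested unigenes of that list, 56 were called lower and 33 higher by limma, with a median of -0.65. Of these 120, 45 had their highest mean at 30 DAF, 42 at 60 DAF and 33 at 90 DAF. CL2711.Contig5_All, listed under phenylpropanoid, isoflavonoid and stilbenoid synthesis, had 7.01, 10.7 and 10.5 FPKM at 30 DAF, 261, 163 and 124 at 60 DAF, then 0, 1.43 and 2.27 at 90 DAF. CL2711.Contig2_All had nearly the same values, with 7.43, 10.9 and 11.2 FPKM at 30 DAF, 260, 159 and 125 at 60 DAF, then 1.03, 2.08 and 3.28 at 90 DAF. These contigs are of 1 cluster and may share reads, so that they are not separate measurements.

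CL2711.Contig2_All fell by 2.05 ± 0.37 (adjusted p = 0.00682 by limma) and CL2711.Contig5_All fell by 2.81 ± 0.64 (adjusted p = 0.0165), the latter a call kept in 13 of 18 other settings and lost without replicate 2 or 3 at 30 DAF (-2.71 and -2.72), with 0.1 added, without a filter and at an adjusted p of at most 0.01. CL2711.Contig3_All had 1.16, 1.24 and 0.92 FPKM at 30 DAF, 29.3, 21.6 and 14.5 at 60 DAF, then 0.14, 0.20 and 0.85 at 90 DAF. Its difference of -0.92 ± 0.35 did not pass (adjusted p = 0.0886), though it did without replicate 3 at 90 DAF (-1.26). CL11914.Contig1_All, listed under flavonoid synthesis, had 12.6, 10.9 and 6.86 FPKM at 30 DAF, 191, 145 and 65.4 at 60 DAF, then 1.01, 0.04 and 0.40 at 90 DAF. It fell by 3.52 ± 0.44 (adjusted p = 0.00162).

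CL534.Contig3_All, listed under the synthesis of phenylalanine, tyrosine and tryptophan, which feeds the phenylpropanoid pathway, had 3.97, 3.23 and 3.70 FPKM at 30 DAF, 64.8, 60.5 and 35.9 at 60 DAF, then 0.20, 0.14 and 0.11 at 90 DAF. It fell by 2.67 ± 0.23 (adjusted p = 0.000388 by limma). The amino acid list held 4 of the 75, of 185 listed, and 2 of the 4 were called lower in Group III, beside 85 of the 175 tested unigenes of the list.

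The terpenoid and carotenoid list held 3 of the 75, of 77 listed, and 2 of the 3 were called lower, beside 36 of the 73 tested unigenes of the list. One of them, Unigene16363_All, listed under sesquiterpenoid and triterpenoid synthesis, had 6.05, 5.44 and 5.32 FPKM at 30 DAF, 32.4, 25.8 and 16.7 at 60 DAF, then 0.18, 1.48 and 0.25 at 90 DAF. Starch and sugar conversion held 2 of 236 and the ribosome list 2 of 48. Plant-pathogen interaction held 1 of 78 and protein processing 1 of 97. None of the 75 was among the 111 unigenes listed for hormone signalling, the 44 for ABC transporters, the 34 for the circadian rhythm or the 59 for the spliceosome.

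The 75 unigenes were 19 single unigenes and 56 contigs of 39 clusters, groups of similar contigs that may be copies, splice forms or alleles of a gene. In 13 clusters at least 2 contigs were among the 75. Between such contigs the counting may divide the same reads, so the FPKM were also summed over all contigs of a cluster. The sum met the 2-fold rule in 28 of the 39 clusters. The 39 clusters had 99 other contigs, of which 69 reached a stage mean of 1 FPKM. Of these 69, 47 were highest at 60 DAF, 15 at 30 DAF and 7 at 90 DAF. Over all 44250 unigenes that reached 1 FPKM, 8.54% were highest at 60 DAF, 37.1% at 30 DAF and the other 54.4% at 90 DAF, and the contigs of a cluster are not independent of each other. These shares are of FPKM as deposited and were not counted again after scaling. Over all unigenes tested, the median difference from 30 to 60 DAF was -0.31 as deposited and -0.03 after median-of-ratios scaling. From 60 to 90 DAF it was 0.36 and -0.04.

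CL2711 had the clearest summed peak, with 20.9 ± 4.26 FPKM at 30 DAF, 387 ± 149 at 60 DAF, then 4.67 ± 2.49 at 90 DAF (SD, n = 3). CL3679 summed to 24.5 ± 13.9, 142.5 ± 46.9 and 0.183 ± 0.176 FPKM, and its contigs 2, 3 and 4 made up 93.1% of the sum at 60 DAF. All 3 were called lower in Group III, by 3.33 ± 0.46 in CL3679.Contig2_All (adjusted p = 0.00246 by limma), by 3.27 ± 0.53 in CL3679.Contig3_All (adjusted p = 0.00451) and by 4.50 ± 0.47 in CL3679.Contig4_All (adjusted p = 0.000788). In these clusters the peak of the contigs was also that of the cluster.

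In CL1747 it was less so. Its 11 contigs summed to 55.2 ± 7.79 FPKM at 30 DAF, 2756 ± 926 at 60 DAF before dropping to 800.4 ± 685 at 90 DAF (SD, n = 3). The lowest sum at 60 DAF, 1816 FPKM, was 1.15 times the highest at 90 DAF, 1574 FPKM. CL1747.Contig8_All, which was not among the 75, had its highest mean at 90 DAF, 329 FPKM beside 288 at 60 DAF and 4.19 at 30 DAF. The other contigs of the cluster that reached 1 FPKM were highest at 60 DAF.

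In 4 clusters the sum at 60 DAF did not clear the outer stages at all. CL15975.Contig8_All, with 15.9, 0.30 and 0.61 FPKM at 30 DAF and 38.5, 74.6 and 44.4 at 60 DAF, made up 4.66% of a cluster that summed to 1188 ± 300.03 FPKM at 30 DAF and 1125 ± 261 at 60 DAF. CL6410.Contig1_All had 0.68, 0.84 and 6.38 FPKM at 30 DAF and 21.9, 22.7 and 22.6 at 60 DAF, whereas its cluster summed to 25.3 ± 2.24 and 26.4 ± 5.75 FPKM. CL68 summed to 31.8 ± 6.90 FPKM at 30 DAF and 32.4 ± 3.75 at 60 DAF. In CL1511 the mean sum was highest at 60 DAF, 159 ± 102 FPKM beside 57.1 ± 8.97 at 30 DAF, but its lowest library there, 56.5 FPKM, lay below the highest at 30 DAF, 67.3 FPKM.

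**Figure D5:**
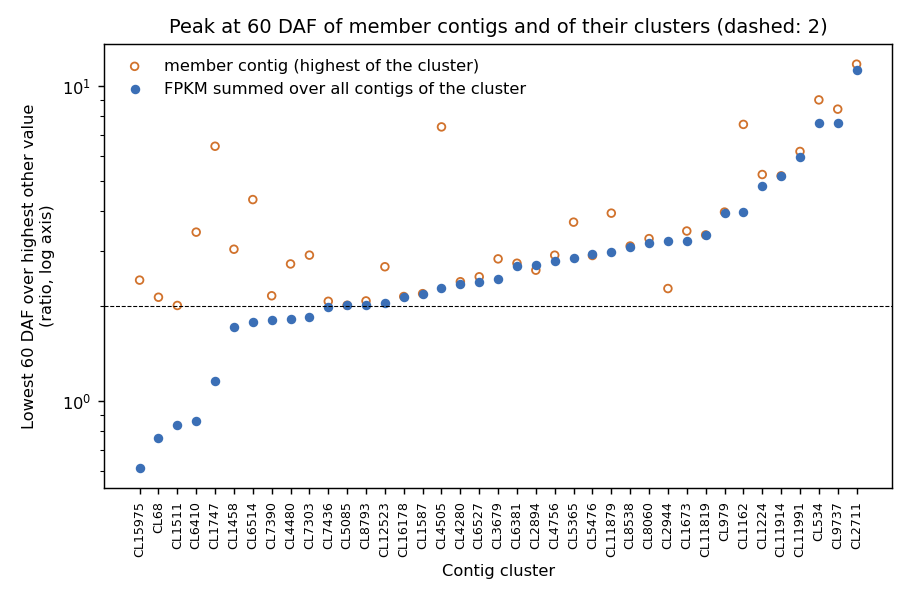
Lowest 60 DAF value over the highest value at 30 and 90 DAF (log axis) for each of 39 clusters, from its highest contig among the 75 (open circles) and from the FPKM summed over all its contigs (filled circles), with the 2-fold rule dashed. The sums of 28 clusters lie above the line, and those of CL15975, CL68, CL1511 and CL6410 lie below 1.

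Within 60 DAF the libraries did not give the 75 the same level. Replicate 3 was the lowest in 59 (78.7%) and replicate 1 the highest in 52. Among the 5585 other unigenes with at least 10 FPKM in all 60 DAF libraries, replicate 3 was the lowest in 64.8% and replicate 1 the highest in 68.5%. The median ratio of replicate 1 to replicate 3 was 1.63 in the 75 and 1.24 in the others. The highest library was more than 2 times the lowest in 30 of the 75. Without replicate 3 at 60 DAF the rule took 144 unigenes, all of the 75 among them.

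The spread at 60 DAF ran from a coefficient of variation of 1.89% in CL6410.Contig1_All to 85.8% in CL1511.Contig6_All, with a median of 31.4%. CL1511.Contig6_All, listed under ascorbate metabolism, had 3.38, 7.62 and 2.44 FPKM at 30 DAF, 210, 114 and 15.7 at 60 DAF, then 7.80, 0.39 and 4.77 at 90 DAF. At 30 DAF the median was 30.7%, with a few unigenes in which 1 library stood apart. CL1224.Contig2_All, picked after its values were seen, had 0.61, 73.3 and 70.7 FPKM at 30 DAF, 167, 371 and 161 at 60 DAF, then 43.8, 47.7 and 31.9 at 90 DAF. Its cluster summed to 166.5 ± 16.5 FPKM at 30 DAF.

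Just inside the 2-fold limit were CL1511.Contig6_All and CL5085.Contig1_All, both at a ratio of 2.01. Just outside were CL3143.Contig1_All at 1.98 (7.06 ± 0.24, 20.3 ± 5.96 and 0.35 ± 0.04 FPKM in the order of the stages, SD, n = 3) and CL10198.Contig2_All at 1.99 (15.1 ± 1.15, 52.5 ± 16.5 and 9.10 ± 6.99 FPKM). At the limit of 10 FPKM, Unigene17005_All was inside with 10.01 FPKM in its lowest 60 DAF library and CL11819.Contig1_All with 10.2 FPKM. CL6585.Contig3_All, with 9.25 FPKM, and CL11085.Contig2_All, with 9.83 FPKM, were outside.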

How the data were processed

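RNA of 9 seed samples was sequenced on an Illumina platform. The authors filtered the reads, assembled unigenes de novo with Trinity, mapped each library to them with Bowtie2, and deposited 1 table of FPKM values estimated with RSEM, all of unstated version. No genome was used, and sequences were not analysed here. FPKM hold no counts, so no count model was fitted, and 9 lines without a unigene were left out. Values were analysed as log2(FPKM + 0.5) with limma 3.58.1 (variance trend) in R 4.3.3. The test covered 55192 unigenes that reached 0.5 FPKM in 3 or more of the 9 libraries, run on the 6 libraries at 30 and 90 DAF only. The 60 DAF libraries alone brought all 75 past this filter. With the filter on the 6 libraries, 73 of the 75 were tested, and 50 were called lower and 5 higher. Left out were CL15975.Contig8_All and Unigene41186_All, the latter called lower in the main fit, while CL6410.Contig1_All was called lower in addition. The rule set a minimum on the libraries at 60 DAF and a cap on these 6, so the fit is not independent of the choice. Calls needed a Benjamini-Hochberg adjusted p of at most 0.05 and a log2 difference of at least 1. The fit was also run on simulated normal log2 values without a lower floor. They do not resemble unigenes near the floor at 90 DAF, so that run does not bear on the calls of those unigenes. Alternatives covered pseudocount, filter, scaling, samples in the fit, thresholds and each library left out.

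Unigenes were named by rule: those with an enzyme name, the 10 highest at 60 DAF, the 5 highest ratios, the 5 largest differences in each direction in Group III, those next to a limit, up to 2 for each pathway with at least 3 of the 75, and the 3 clusters with most contigs among the 75 (a tie was settled by summed FPKM at 60 DAF). Others appear where a count singled them out or an annotation is described, after their values were seen. The unigenes and all lists were chosen with earlier results of these data known.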

Additional observations from a re-analysis of the deposited data

How the results depend on the processing

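The number of unigenes peaking at 60 DAF was 129 after median-of-ratios scaling (73 of the 75 among them), 132 after quantile normalization (75), 114 with 1.5 times in the rule, 34 with 3 times, 47 with FPKM summed over clusters, and 76 to 144 with 1 library left out. Unigenes called lower at 90 DAF numbered 45 to 52 under the other settings and 47 to 49 with 1 library left out, and 81 of the 129 were called lower, beside 6 higher, when they were chosen after scaling, an alternative added after seeing the data. Unigenes called higher numbered 1 without a filter, 3 after median-of-ratios scaling, 3 with a replicate block, 1 at an adjusted p of at most 0.01, and 1 to 4 with 1 library left out. Replicate numbers did not pair the samples (correlations of deviations between 30 and 90 DAF of -0.16, -0.06 and -0.06), and the block gave 49 lower calls: it ended those of Unigene30026_All, Unigene16991_All and Unigene41186_All and added CL4756.Contig1_All and CL4756.Contig2_All. The median from 30 to 60 DAF was 3.001 after median-of-ratios scaling, that from 60 to 90 DAF was -6.92 with 0.1 added, -4.79 with 1 added and -5.92 after scaling, and that from 30 to 90 DAF was -3.59 with 0.1 added and -1.76 with 1 added, as values near 0 depend on what is added. Scaling put the median of all unigenes tested at -0.03, -0.04 and -0.07 for Groups I, II and III. Without the 10 highest unigenes of each library the share of FPKM was 0.308% at 30 DAF and 2.81% at 60 DAF. With 1 library left out, the difference from 30 to 90 DAF ranged from -0.33 to 0.0097 in CL1224.Contig3_All (above 0 without replicate 2 at 90 DAF) and from -1.06 to 0.55 in CL1511.Contig6_All (above 0 without replicate 2 at 30 DAF, 0.005, or at 90 DAF), neither of them called. The cause of these shifts was not tested. The study lists nearly equal clean reads for the libraries, but mapped fragments are not stated with FPKM, so no limit was set for a value of 0.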

Other observations

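The cap on the mean left out 3 unigenes that met the rest of the rule. Unigene15921_All went from a mean of 4280 ± 824 FPKM at 30 DAF to 12957 ± 2453 at 60 DAF and back to 1126 ± 440.4 at 90 DAF (SD, n = 3). CL4505.Contig2_All had 1094 ± 54.0, 4301 ± 1596 and 1.78 ± 2.52 FPKM, and CL4505.Contig1_All had 1021 ± 20.3, 3839 ± 1296 and 0.89 ± 1.35 FPKM. With CL4505.Contig5_All they are of 1 cluster, whose 5 contigs summed to 3069 ± 135, 11436 ± 3898 and 3.42 ± 4.51 FPKM, so that nearly all of its level at 30 and 60 DAF was gone at 90 DAF. No name is given to these unigenes.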
